A study of Mus musculus with 8 samples.

Results

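The genes described here are 36 mouse genes of recombination and Fanconi repair, chosen by name from the known pathway. The rule uses no measured value, but the list was drawn up with earlier results of these data known. They are 36 of 21887 protein-coding genes in the RefSeq annotation of GRCm38.p6 (mm10), in which all of them were found by symbol. The histone mark H3K79me2 had been mapped with ChIP-seq, the sequencing of DNA pulled down with an antibody, in cultured spermatogonial stem cells, which maintain the male germline. The treated cultures had 2 µM EPZ5676, which inhibits DOT1L, the enzyme that writes the mark, for 7 days, and the control cultures had vehicle only. The protocols call the vehicle DMSO, while the control samples carry a label that reads EtOH. All cultures came from testes of the strain B6.129S7-Gt(ROSA)26Sor/J, taken at an age of 7 days. This strain carries a LacZ reporter throughout the body. The cells had been grown for 2 months on SNL 76/7 feeder cells, without serum and with GDNF (10 ng/mL) and FGF2 (0.5 ng/mL). The series holds 8 samples in 4 groups of 2, which are H3K79me2 under EPZ5676, H3K79me2 in the control, input under EPZ5676 and input in the control, and its peaks are given as 1 list per condition. There is therefore no replicate error on any value below, no test between conditions could be made, and read depth is unknown.

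Homologous recombination mends a broken chromosome by copying the intact sister chromatid, and the Fanconi pathway unhooks crosslinks between DNA strands and hands the resulting breaks to it. Germ cells lean on both, since damage left in them can pass to the offspring, and mice that lack some Fanconi genes have few germ cells. H3K79me2 is written by DOT1L on nucleosomes of transcribed genes, mostly in the early part of the gene body, so a peak of it over a repair gene is commonly read as a sign of transcription. Peaks are not RNA levels, and no RNA was measured here.

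Cell identity was checked on markers, by the bases of their spans that lay under a peak, a stretch where the authors called the mark enriched. Of 15 genes of undifferentiated spermatogonia, 1 had an EPZ5676 peak and 15 had a control peak, with 762 bp covered in sum under EPZ5676 and 427288 bp in the control. Of 14 genes of fibroblast feeder cells, 4 had an EPZ5676 peak (Sparc, Prrx1, Twist2 and Fbn1) and 8 had a control peak, with 8872 bp in sum under EPZ5676 and 49535 bp in the control. Col1a2, Col3a1, Vim, Dcn, Lum and Postn had none in either list. Of 8 genes of testis somatic cells, 0 had an EPZ5676 peak and 2, Amh and Wt1, had a control peak, with 0 bp in sum under EPZ5676 and 9480 bp in the control. The protocols name no step that took the feeder cells out, and the part they had in the values of the repair genes was not tested. The EPZ5676 list held 9182 peaks, 0 of them on X or Y, and the control list 47774, of which 1007 lay there. The repair genes all lie on autosomes, whereas the shares of all protein-coding genes given below include X and Y.

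A peak of H3K79me2 lay on every one of the 36 repair genes in control cells, and under EPZ5676 on Rnf8 alone. In numbers, 1 of 36 genes had an EPZ5676 peak, where 12.3% of all protein-coding genes did, and 36 of 36 had a control peak, where 52.7% did. A control peak with no EPZ5676 peak was found on 35 of 36 genes, which is true of 42.5% of all genes and of 80.7% of control-marked genes, and an EPZ5676 peak alone on 0 of 36, where 2.14% of all genes had it. Peaks covered 270 bp of the 36 spans under EPZ5676 and 294491 bp, or 11.9% of their summed length, in the control. Control peaks covered 15.5% of the summed length of all protein-coding genes and 25.6% of that of control-marked genes. In the control the median repair gene was covered over 18.3% of its span (lower and upper quartile 6.89 and 25.8%), whereas the median over all protein-coding genes was 2.15% and that over control-marked genes 32.6%. The median share was thus above that of genes at large and below that of marked genes, while the share of summed length was below both. That last share leans on 1 gene, Rad51b, which holds 550979 of the 2484844 bp summed and had 2733 bp covered. It was not computed without Rad51b.

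The control blocks were of moderate size. At least 500 bp were covered in 36 of 36 repair genes (50.6% of all protein-coding genes), at least 1000 bp in 34 (47.8%), at least 10% of the span in 24 (42.9%) and at least 50% of the span in 2 (15.9%). The 36 spans held 111 control peaks with a median width of 1507 bp and a median fold enrichment of 2.31, where the whole control list had medians of 1102 bp and 2.30. Fold enrichment is the authors' ratio of signal to background. A control peak with a fold enrichment of at least 3 lay on 22 of 36 genes, beside 31.7% of all genes and 60.2% of control-marked ones. One of at least 4 lay on 7 genes, Brca1, Bard1, Rad51c, Mdc1, Rnf8, Blm and Parp1. Such a peak lay on 3764 of 21887 protein-coding genes, or 32.7% of control-marked ones. At Rad51c the peak counted was shared with Tex14 and ended 235 bp after the start. At Fancd2 and Fancf the peak counted for at least 3 lay mostly outside the gene. In 14 genes the mark formed 1 peak, in 6 it formed 2, and in 16 it formed 3 or more. Other genes were not split in this way, and the median span was 50104.5 bp here and 25281.5 bp in control-marked genes.

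Gene length matters for such counts, because a longer span has more room for a peak. Each gene was therefore set beside the 100 protein-coding genes nearest to it in span length. A mean of 63.4% of those neighbours had a control peak, with a range of 28 to 82% over the 36 sets. The control share of the repair gene lay above the median of its neighbours for 26 of 36 genes. That median was 0 for Rad51b, Xrcc3, Fancf, Fancg, Slx4 and Mus81, so any control peak placed them above it. Against neighbours that also had a control peak, the share of the repair gene lay above the median for 8 of 36. The median gene had a higher share than 60 of its 100 neighbours and than 31.5 of its 100 marked neighbours. Longer repair genes had more bases covered but a smaller share of the span (Spearman's rho 0.52 and -0.44 over the 36 genes, which are not independent replicates).

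**Figure D1:**
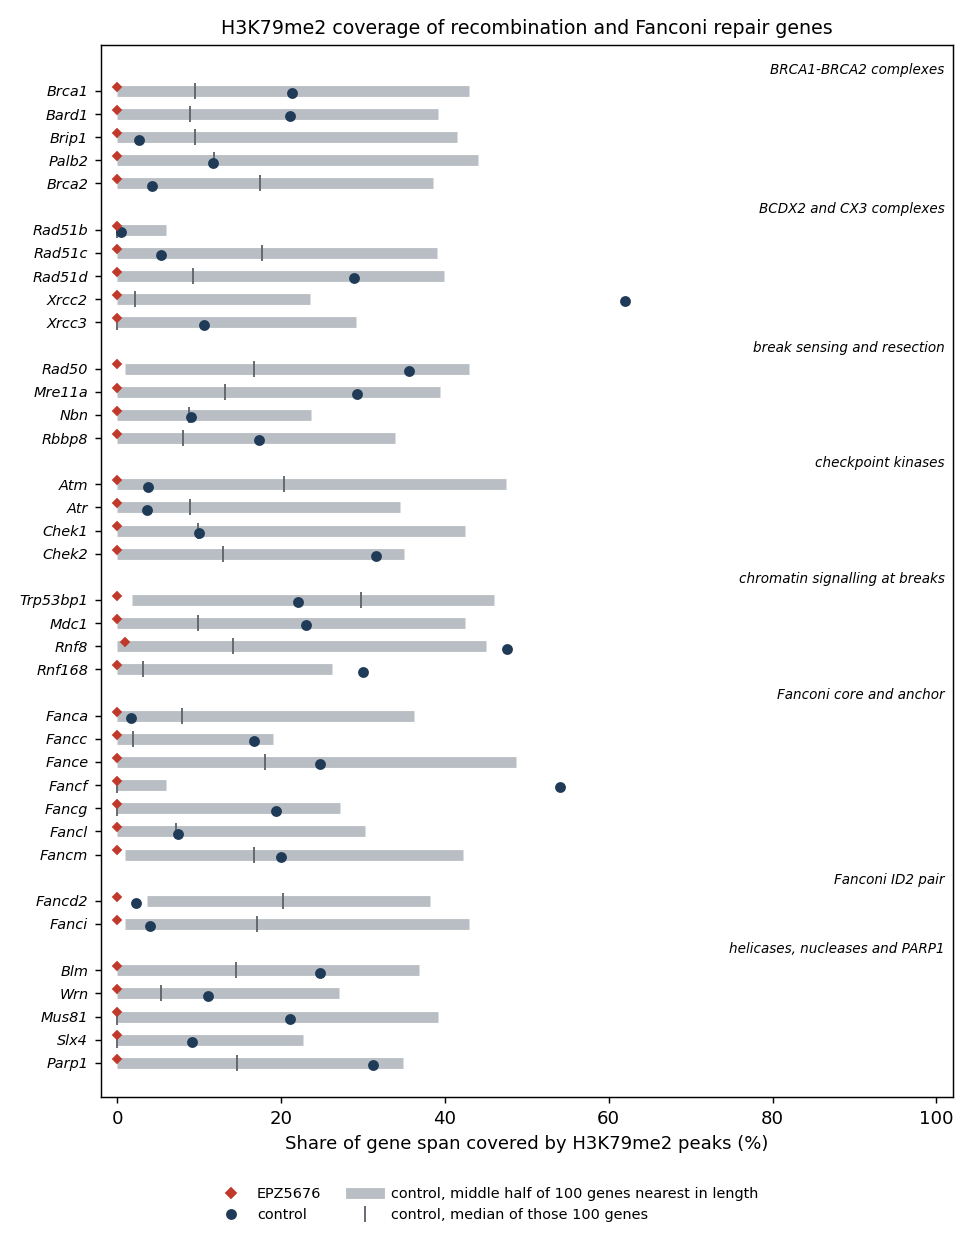
Share of each gene span under H3K79me2 peaks in percent for the 36 repair genes by role, with red diamonds for EPZ5676 and dark circles for the control; grey bars run between the quartiles of the control share of the 100 genes nearest in length, and a tick gives their median. All diamonds but that of Rnf8 sit at 0, and the control circles run up to 62.0% at Xrcc2.

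Of the 5 genes of the BRCA1 and BRCA2 complexes, 0 had an EPZ5676 peak, and the median control share was 11.7%, with 2 of 5 above their length neighbours. Brca1, whose product promotes the cutting back of broken ends, had 0 bp under EPZ5676 and 13509 bp in 4 peaks in the control (chr11:101488761-101551955). Its main control peak was 10896 bp wide, with a fold enrichment of 4.04, and began 168 bp after the start. Bard1, the partner of BRCA1 in a ubiquitin ligase, looked alike (chr1:71027535-71103141). It had 0 bp under EPZ5676 and 15974 bp in the control, with a main peak of 11274 bp and a fold enrichment of 4.12. Both were covered over a like part of the span, 21.4% for Brca1 and 21.1% for Bard1. The other 3 genes carried less of the mark. Palb2, whose product bridges BRCA1 and BRCA2, had 0 bp under EPZ5676 and 3009 bp in the control (chr7:122107262-122132980). Its control peak, 4472 bp wide, also reached into Dctn5, so its signal belongs to both genes. Brca2, a tumour suppressor gene whose product acts in homologous recombination, had 0 bp under EPZ5676 and 2040 bp in the control (chr5:150522297-150570147), with a highest fold enrichment of 2.41. Brip1, a helicase gene whose product binds BRCA1, had 0 bp under EPZ5676 and 3722 bp in the control in 4 peaks, 2.60% of a span of 143080 bp (chr11:86058136-86201215). Most of that, 2614 bp, was a single peak of fold enrichment 2.86 that began 552 bp after the start.

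The genes of the BCDX2 and CX3 complexes, which act in homologous recombination, differed widely, with a median control share of 10.6% and 0 of 5 marked under EPZ5676. Xrcc2 had the highest share of all 36 genes, with 0 bp under EPZ5676 and 9918 bp in 3 peaks, or 62.0% of its span, in the control (chr5:25689814-25705797). It had a higher share than 96 of its 100 length neighbours, while its highest fold enrichment was 2.74. Rad51b had the lowest share of the 36. It had 0 bp under EPZ5676 and 2733 bp in the control in 4 peaks, 0.496% of a span of 550979 bp (chr12:79297282-79848260), with a highest fold enrichment of 2.35. That was still more than 62 of its 100 length neighbours, of which 45 had a control peak. Rad51d had 0 bp under EPZ5676 and 5402 bp in the control (chr11:82871960-82890624), and Xrcc3 had 0 bp under EPZ5676 and 1134 bp in the control (chr12:111803192-111813893). At Rad51c (chr11:87376645-87404954), 0 bp were covered under EPZ5676 and 1521 bp in the control. Its peak of fold enrichment 4.91 was 17770 bp wide, ended 235 bp after the start of Rad51c and was shared with Tex14, a gene that starts next to it. The peak that lay wholly in Rad51c had 1285 bp and a fold enrichment of 2.73.

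The genes that sense and trim breaks had a median control share of 23.3%, and all 4 lay above the median of their length neighbours in the control and had 0 bp under EPZ5676. Against neighbours that also had a control peak, Rad50 and Mre11a lay above the median and Nbn and Rbbp8 below it. RAD50, MRE11 and NBN form the MRN complex, which holds and trims broken ends. Rad50 had 20572 bp in 6 control peaks, 35.6% of its span, with a highest fold enrichment of 3.16 (chr11:53649519-53707319). Mre11a, which encodes the nuclease of the complex, had 15327 bp in 7 control peaks (chr9:14784654-14837125). Nbn had 3142 bp in 1 control peak of fold enrichment 3.86, so the genes of this complex differed widely in covered length (chr4:15957587-15992589). Rbbp8, which encodes the resection factor CtIP, had 19040 bp in 7 control peaks, with a highest fold enrichment of 3.19.

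The checkpoint kinase genes had a median control share of 6.87%, with 2 of 4 above their length neighbours, and 0 of 4 had an EPZ5676 peak. Atm encodes the kinase that answers double-strand breaks (chr9:53437122-53536828). It had 0 bp under EPZ5676 and 3698 bp in the control, 3.71% of a span of 99707 bp, in a peak of fold enrichment 3.85. Atr encodes the kinase that answers stalled replication (chr9:95857597-95953217). It had 0 bp under EPZ5676 and 3431 bp in the control in 1 peak, 3.59% of 95621 bp, with a fold enrichment of 3.09. Both kinases thus carried 1 short block, and both lay below the median share of their neighbours, 20.4% for Atm and 8.91% for Atr. Their effector kinases differed from each other. Chek1, which acts downstream of ATR, had 0 bp under EPZ5676 and 1822 bp in the control in 1 peak (chr9:36708482-36726658). Chek2, which acts downstream of ATM, had 0 bp under EPZ5676 and 10839 bp in the control in 5 peaks, 31.6% of its span, with a highest fold enrichment of 3.16 (chr5:110839800-110874140).

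Among the genes of chromatin signalling at breaks, whose median control share was 26.5%, stood the 1 repair gene with a peak in both lists. Rnf8 encodes a ubiquitin ligase that marks histones around breaks (chr17:29614789-29641664). It had 270 bp under EPZ5676 and 12781 bp in 4 peaks, 47.6% of its span, in the control. The EPZ5676 peak (chr17:29616618-29616887) had a fold enrichment of 2.93 and a −log10 q of 1.73, and lay 1829 to 2098 bp after the start. It fell inside a control peak of 9649 bp with a fold enrichment of 4.65 and a −log10 q of 16.5. The upstream and downstream partners of RNF8 had no EPZ5676 peak. Mdc1, the scaffold that recruits RNF8, had 0 bp under EPZ5676 and 4193 bp in the control, with a highest fold enrichment of 4.03 (chr17:35841495-35859670). Rnf168, the ligase that extends the mark RNF8 lays down, had 0 bp under EPZ5676 and 7185 bp in the control in 3 peaks (chr16:32277461-32301442). Trp53bp1, whose product 53BP1 holds back resection, had 0 bp under EPZ5676 and 22398 bp in the control in 11 peaks (chr2:121194835-121296354). Of those bases, 307 also lie in the span of Map1a.

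The 7 Fanconi genes of the core ligase and its anchor had a median control share of 19.3%, 6 of them above their length neighbours, and 0 bp under EPZ5676. The median of the neighbours was 0 for Fancf and Fancg. Against neighbours that also had a control peak, Fancc lay above the median and the other genes below it. Fancc had 32808 bp in 9 control peaks, the longest coverage of the 36 genes, with a highest fold enrichment of 3.99 (chr13:63301334-63497292). Fanca had the shortest, 871 bp or 1.66% of its span, in a peak of fold enrichment 2.51 (chr8:123266294-123318651). These extremes fell within 1 protein complex. Fancf, a gene of 1691 bp, had 914 bp, or 54.1%, in a control peak of 5488 bp and fold enrichment 3.08 that ran on beyond its end (chr7:51860577-51862267). Fancl, which encodes the catalytic subunit, had 6274 bp in 3 control peaks (chr11:26387084-26471883). Fancm, which encodes the DNA translocase that anchors the complex, had 11574 bp in 5 (chr12:65074110-65131842). The adaptor genes had 1 control peak each. Fance had 3227 bp, or 24.7% of its span (chr17:28313530-28326574), and Fancg had 1591 bp, or 19.3% (chr4:43002337-43010567).

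The pair of proteins that this ligase modifies, FANCD2 and FANCI, clamp onto DNA at a crosslink, and their genes were little covered. Fancd2 had 0 bp under EPZ5676 and 1508 bp in the control, 2.31% of its span (chr6:113531640-113597020), in a peak of 9503 bp and fold enrichment 3.60 that it shared with Emc3 and that lay mostly outside Fancd2. Fanci had 0 bp under EPZ5676 and 2304 bp in the control, 3.98% (chr7:79392312-79450266), in a peak of fold enrichment 2.28. Both lay below the median share of their length neighbours, with 21 of 100 lower for Fancd2 and 31 of 100 lower for Fanci.

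Of the helicase and nuclease genes and Parp1, all 5 had a control share above the median of their neighbours, a median share of 21.1% and 0 bp under EPZ5676. The median of the neighbours was 0 for Mus81 and Slx4. Against neighbours that also had a control peak, Parp1 lay above the median and Blm, Wrn, Mus81 and Slx4 below it. Parp1 encodes the break sensor that builds poly(ADP-ribose) (chr1:180568891-180600999). It had the most enriched control peak of the 36 genes, with a fold enrichment of 6.95 and a −log10 q of 35.7 over 9556 bp, and 10013 bp covered in all. Blm, the helicase gene mutated in Bloom syndrome in people, carried the widest control peak in any of these genes, an unbroken 19879 bp with a fold enrichment of 4.85 (chr7:80454993-80535148). Wrn, a helicase and exonuclease gene, had 16662 bp in 6 control peaks (chr8:33234372-33385543). Slx4, the scaffold of the nucleases that cut branched DNA, had 2248 bp (chr16:3979105-4003829), and Mus81, a nuclease gene, had 1228 bp (chr19:5482561-5488389).

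In most of these genes the control mark began close to the start, and mean coverage fell deeper in the gene. A strand and an annotated start were found for 29 of the 36, and the others, Rad51d, Xrcc2, Rad50, Nbn, Rbbp8, Fancd2 and Wrn, enter none of the values on position. The first covered base lay 1 to 1000 bp after the start in 23 of the 29 genes (79.3%) and in 64.5% of other control-marked genes. The start itself was inside a control peak in 3 of 29 genes, Palb2, Rad51c and Slx4, beside 6.27% of all genes with a start and 11.7% of control-marked ones. Between 1000 and 1499 bp after the start, control peaks covered a mean of 91.0% in the 29 repair genes and 78.8% in 9211 other control-marked genes. Between 10000 and 10499 bp, the means were 26.5% in 26 repair genes and 43.2% in 6969 others, and between 20000 and 20499 bp they were 2.75% in 22 repair genes and 33.9% in 5155 others. The mean of the repair genes was the higher one between 500 and 1999 bp and the lower one at every later distance. Upstream it was also the higher one, from -5000 to -501 bp, with 30.9% beside 16.0% between -5000 and -4501 bp.

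**Figure D2:**
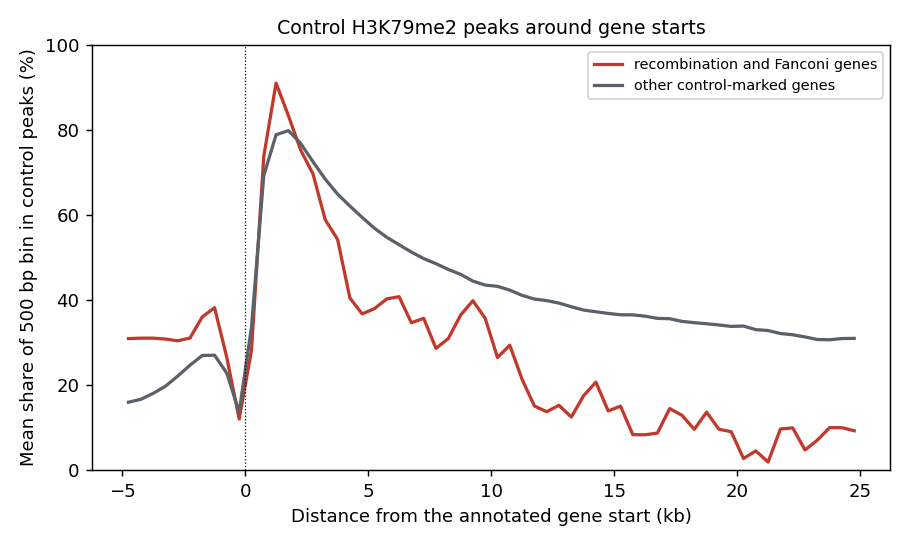
Mean share of each 500 bp bin under control H3K79me2 peaks, in percent, against distance from the annotated start in kb, for the repair genes (red, 29 at the start) and other control-marked genes (grey); a bin takes in only genes that reach it. The red curve peaks at 91.0% and is the lower one from 2000 bp on.

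Among the 22 repair genes over 20 kb with a known start, a median of 73.7% of the control coverage lay in the first 10 kb. The median of the corresponding values for the 100 control-marked genes nearest in length was 43.9%, and 19 of 22 repair genes lay above their own neighbours. The exceptions were Slx4 (9.12% beside 84.9%), Chek2 (66.1% beside 77.9%) and Rnf8 (74.5% beside 76.7%). In Atm, Atr, Brca2, Fanci, Fanca and Rad51c all control coverage lay in that window, and in Brip1 70.2% did. The neighbours of these kinases had 23.3% there for Atm and 25.7% for Atr, and those of Brip1 had 15.0%. In 8 of the 22 genes (36.4%) the last covered base came within 5000 bp of the start, as it did in 11.8% of other control-marked genes over 20 kb. The 22 genes had less coverage altogether, a median of 6729.5 bp beside 16877 bp for their neighbours, with 18 of 22 below. The share in the first 10 kb is divided by this total, so the comparisons are not independent. Inside that window, between 4000 and 4499 bp, control peaks covered a mean of 40.5% in 28 repair genes and 62.1% in 8428 other control-marked genes. The annotated start lay 65547 bp inside the span in Fancc, 24947 bp in Trp53bp1 and 2151 bp in Slx4, so part of their coverage counts as upstream of it. The window and this comparison were chosen after the values had been seen. With the first 20 kb in place of the first 10 kb, 12 of 22 lay above their neighbours. Rad50, Nbn, Rbbp8, Fancd2 and Wrn, also over 20 kb, have no known start and are left out here. Rbbp8 had no control peak within 20 kb of either end of its span. In Rad50 the widest control peak, 10349 bp, lay mostly more than 10 kb from either end. In Wrn the widest, 9731 bp, ended near an end of the span. In Nbn and Fancd2 all control coverage lay within 10 kb of an end.

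**Figure D3:**
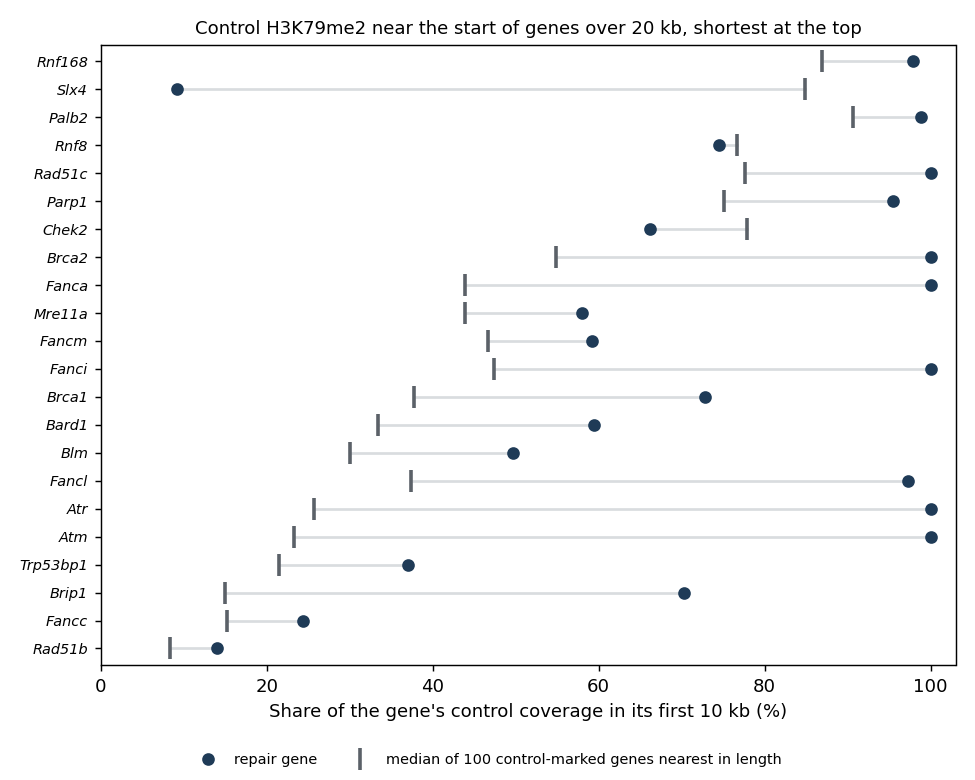
Share of a gene's control coverage that lies in its first 10 kb, in percent, for the 22 repair genes over 20 kb (circles) and the median of 100 control-marked genes nearest in length (ticks). In 19 of 22 genes the circle is to the right of the tick.

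**Figure D4:**
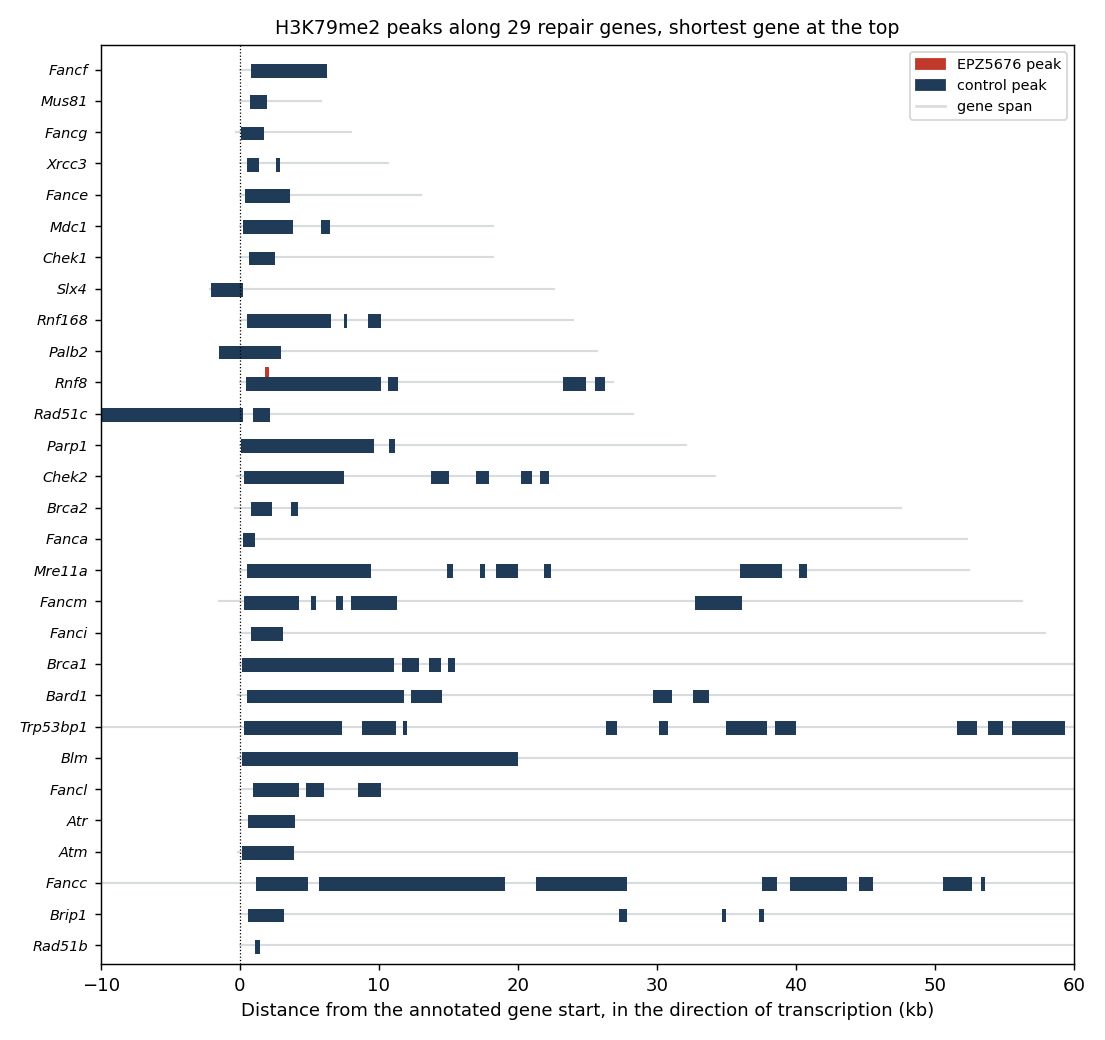
H3K79me2 peaks of 29 repair genes by distance from the annotated start in kb, EPZ5676 in red above and control in dark blue below, shown from 10 kb upstream to 60 kb downstream. The only red bar is that of Rnf8, and in 23 of 29 genes the first covered base lies 1 to 1000 bp right of the start, with further dark bars deeper in many genes.

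Some of these starts face another gene. A protein-coding start on the other strand lay at most 1000 bp upstream in 7 of 29 repair genes (24.1%) and in 12.3% of 9306 other control-marked genes. The facing genes were Nbr1 at Brca1 (152 bp), Npat at Atm (376 bp), Ankrd49 at Mre11a (81 bp), Dctn5 at Palb2 (95 bp), Tex14 at Rad51c (111 bp), Zfyve21 at Xrcc3 (291 bp) and Zfyve26 at Rad51b (1000 bp). In all 7, control peaks covered part of the 5 kb upstream, from 1088 bp at Mre11a to 5000 bp at Rad51c, as they did in 90.9% of the 1148 other control-marked genes with a facing start. Only genes with a known start were searched, and a facing start inside the gene itself was not counted. Of the 22 repair genes with no such neighbour found, 8 had upstream coverage (36.4%), beside 38.6% of 8158 other control-marked genes. Both shares were near those of other marked genes. They count any coverage, and mean coverage from -5000 to -501 bp was higher in the repair genes.

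Promoter windows, from 250 bp before to 50 bp after the start, were seldom covered in these genes or in others. An EPZ5676 peak reached into 0 of 29 repair gene windows and into 9 of 17492 protein-coding windows. A control peak reached into 3 of 29 (10.3%), near the 8.89% of all windows. The windows held a median of 22 CpG steps, where the median of all windows was 13, and had a median GC content of 58.0%, beside 56.3%. The letters CCAAT, the motif of NF-Y, were found on either strand in 17 of 29 windows (58.6%) and in 39.2% of all. The NRF1 letters GCATGCGC were in 3 of 29 and in 3.61% of all, and the E2F letters TTTGGCGC and TTTCGCGC, searched likewise on both strands, were in 0 of 29 and in 0.663 and 0.452% of all. A match of letters is not a binding site. All these repair genes were control-marked, and no comparison with the windows of control-marked genes alone was made. The windows below, from RefSeq on GRCm38.p6 and written 5′ to 3′ on the strand of the gene, are those of the gene with a peak in both lists (Rnf8, chr17:29614539-29614838, plus strand), of the highest enrichment (Parp1, chr1:180568641-180568940, plus strand), of the widest peak (Blm, chr7:80534949-80535248, minus strand) and of a window wholly inside a control peak (Rad51c, chr11:87404905-87405204, minus strand), with CCAAT or its reverse complement in capitals. Rnf8 has 1 such match, Blm has 2, and Parp1 and Rad51c have 0.
Rnf8: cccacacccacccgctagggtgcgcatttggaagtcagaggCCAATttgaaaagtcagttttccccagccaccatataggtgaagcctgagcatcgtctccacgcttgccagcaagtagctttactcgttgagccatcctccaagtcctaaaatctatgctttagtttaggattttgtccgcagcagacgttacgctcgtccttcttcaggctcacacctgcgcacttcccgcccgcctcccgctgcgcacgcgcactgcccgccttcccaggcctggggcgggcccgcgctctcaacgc
Parp1: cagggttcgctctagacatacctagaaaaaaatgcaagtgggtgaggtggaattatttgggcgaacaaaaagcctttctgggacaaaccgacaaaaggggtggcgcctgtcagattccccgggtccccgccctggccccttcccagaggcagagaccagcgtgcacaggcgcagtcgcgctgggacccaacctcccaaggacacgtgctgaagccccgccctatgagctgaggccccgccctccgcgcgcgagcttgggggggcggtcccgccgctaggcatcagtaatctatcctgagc
Blm: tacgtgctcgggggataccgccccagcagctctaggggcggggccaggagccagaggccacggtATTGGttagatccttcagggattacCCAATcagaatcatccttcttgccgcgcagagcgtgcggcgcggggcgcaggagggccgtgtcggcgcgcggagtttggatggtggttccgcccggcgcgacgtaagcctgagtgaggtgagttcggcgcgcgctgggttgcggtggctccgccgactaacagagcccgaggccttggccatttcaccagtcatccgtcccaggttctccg
Rad51c: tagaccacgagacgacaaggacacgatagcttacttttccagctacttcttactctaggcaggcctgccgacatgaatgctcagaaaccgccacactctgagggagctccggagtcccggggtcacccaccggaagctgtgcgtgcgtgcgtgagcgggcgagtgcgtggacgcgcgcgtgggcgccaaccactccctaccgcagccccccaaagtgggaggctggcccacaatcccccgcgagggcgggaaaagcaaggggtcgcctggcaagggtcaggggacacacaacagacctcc

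The 36 genes were also set beside control-marked genes of like length and coverage for what remained under EPZ5676. An EPZ5676 peak lay on 1 of 36 repair genes (2.78%) and on 19.3% of all control-marked genes. It lay on a mean of 25.5% of the 100 control-marked genes nearest each in span length and on a mean of 14.9% of the 100 nearest in control-covered length. The last of these comparisons was added after the values had been seen. It ranged from 0 to 55%, with the highest values, 55 and 54%, at Fancc and Trp53bp1, which themselves had no EPZ5676 peak. Outside the spans, the nearest EPZ5676 peak lay 2808 bp from Atm, 12315 bp from Mre11a and 18763 bp from Nbn. The median distance for the 35 genes without a peak was 171520 bp, and 26 of 36 had none within 100 kb. These distances were not computed for other genes, so whether they are unusual is not known. The lowest −log10 p of any peak was 4.03 in the EPZ5676 list and 2.36 in the control list, and a region without a peak may still hold the mark below the level of calling. With control peaks held to the EPZ5676 minimum, 31 of 36 genes had a control peak, beside 44.7% of all protein-coding genes, and Brca2, Rad51b, Rad51d, Fanci and Mus81 did not.

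Among other repair genes, EPZ5676 peaks were also few. Of 96 further repair genes, 5 had an EPZ5676 peak and 92 had a control peak, so 5.43% of the marked ones had both, and their median control share was 24.2%. In the rest of the recombination and Fanconi pathway 3 of 37 genes had an EPZ5676 peak and 36 had a control peak. Sem1, whose product binds BRCA2, had 2378 bp under EPZ5676 and 18409 bp in the control. Rpa1, of the single-strand binding complex RPA, had 991 bp under EPZ5676 and 24996 bp in the control. Top3a, the topoisomerase gene whose product works with BLM, had 983 bp under EPZ5676 and 13820 bp in the control. These were the 3 with both. Fan1, a crosslink nuclease gene, was the member of that list with no control peak. In damage checkpoint and signalling genes 0 of 20 had an EPZ5676 peak and 19 had a control peak, led by Babam2 (78962 bp in the control) and Rad18 (26559 bp), and the X-linked Brcc3 had no peak. Of 9 end joining genes, 0 had an EPZ5676 peak and 9 had a control peak, with Xrcc6 (16807 bp in the control) and Dclre1c (14612 bp) the longest. Of 12 base excision and single-strand break genes, 0 had an EPZ5676 peak and 11 had a control peak, with 13881 bp in the control at Xrcc1 and no peak at Neil1. Of 7 mismatch repair genes, 0 had an EPZ5676 peak and 7 had a control peak, with 14932 bp in the control at Pms1. Of 11 nucleotide excision genes, 2 had an EPZ5676 peak and 10 had a control peak. Among these marked genes 20% had an EPZ5676 peak, near the 19.3% of all control-marked genes. The damage recognition gene Rad23b had 1111 bp under EPZ5676 and 33383 bp in the control, and the helicase gene Ercc2 had 151 bp under EPZ5676 and 2970 bp in the control. There Ercc6 had 22355 bp in the control and the X-linked Cetn2 had none.

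**Figure D5:**
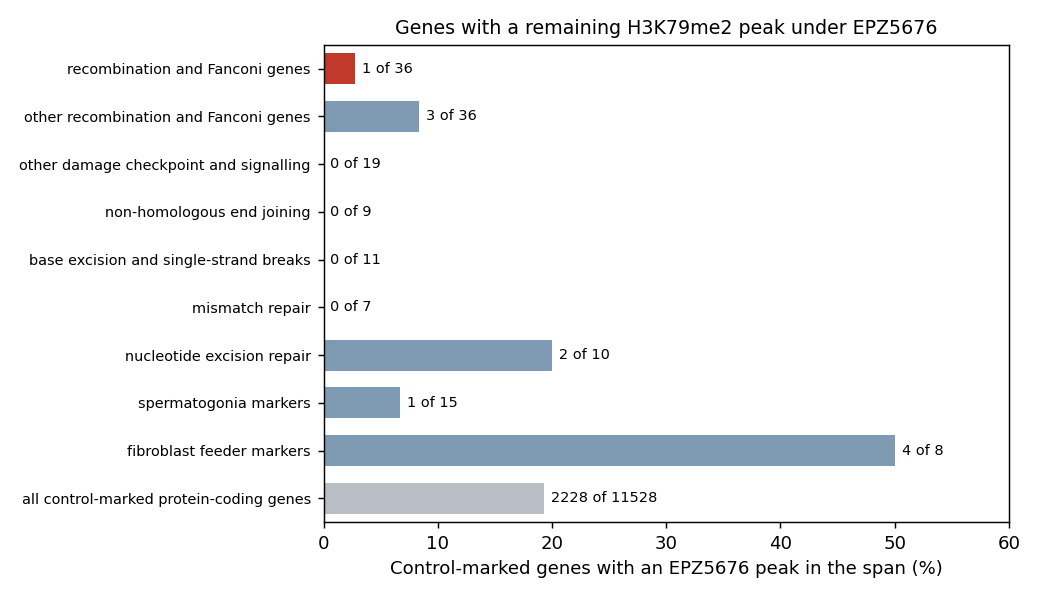
Share of control-marked genes with an EPZ5676 peak in the span, in percent, for the 36 repair genes (red), other repair lists and cell type markers (blue) and all control-marked protein-coding genes (grey), with the counts beside the bars. The 36 repair genes stand at 2.78% and all control-marked genes at 19.3%.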

How the data were processed

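Peaks of H3K79me2 were deposited as 1 list per condition, each recorded under replicate 1 of its group. The tools listed in the submitters' processing notes are Trimmomatic, deepTools and bcl2fastq 2.20.0.422, and the build is mm10. Not given in the sources used here are the aligner, the peak caller, the use of inputs in calling and any pooling of replicates. The score, the fold enrichment (a ratio of signal to background), the −log10 p-value and the −log10 q-value of each peak are the authors' deposited values and served only to describe or filter peaks. Columns of per-sample values left without a sample numbered 0.

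Covered bases and peaks were counted per RefSeq GRCm38.p6 gene span with Python 3.11.15, numpy 2.4.6 and pandas 2.3.3, after the counting had been tested on simulated spans. A gene was marked when at least 1 bp was covered. Strand and start came from the RefSeq promoter table, and the most upstream start was taken. Exons and introns were not distinguished. Of 134 other listed genes 133 matched, 4 by an older symbol. The 36 genes and all lists were chosen with earlier results of these data known. By the naming rule, members with an EPZ5676 peak and those with the 5 highest and the 5 lowest control shares are given in full and the others by value; of other lists, genes with an EPZ5676 peak, the 2 with the longest control coverage and those without a control peak are named. Some genes that this rule names are not reported here. With 1 list per condition no test was made, and alternatives to these choices are given in the closing part.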

Additional observations from a re-analysis of the deposited data

How the results depend on the processing

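Of the results on the 36 genes, the control count and the count without an EPZ5676 peak stayed within 1.5 times the reported 36 and 35 under all settings but the fold limit. Within that bound the control count still fell to 24 where 10% of the span had to be covered (42.9% of all genes). It was 31 at the p-value minimum of the EPZ5676 list (44.7%). With peaks of at least 3-fold enrichment, an EPZ5676 peak lay on 0 genes (2.28% of all genes), a control peak on 22 (31.7%), and 22 had a control peak only. The single EPZ5676 call, Rnf8, was lost (0 genes) when 500 bp, 1000 bp or 10% of the span had to be covered (7.77%, 4.65% and 0.366% of all genes), with −log10 q of at least 2 (1.91%) and with peaks of at least 500 bp (6.58%), as its 270 bp and −log10 q of 1.73 imply. Where so few genes have a call, as at 10% of the span, 0 of 36 says nothing about these genes. Beyond fewer peaks kept, the cause of other shifts was not tested. The median control share, 18.3% as reported, was 14.3% at −log10 q of at least 2, 4.62% at 3-fold, 10.4% at the p-value minimum of the EPZ5676 list, 16.1% with spans extended by 1000 bp, 21.1% in the 27 genes that overlap no other protein-coding gene and 19.1% with peaks up to 1000 bp apart joined. The count above length neighbours, 26, fell to 8 when neighbours were drawn from control-marked genes and stayed between 18 and 27 otherwise. Of the alternatives chosen after seeing the data, the first 20 kb gave 12 genes above their neighbours in place of 19. No paired analysis was possible because each condition has 1 peak list and no test was made. For the same reason no replicate could be left out, and depth, which limits what a list can call, is unknown.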
